A study of Mus musculus with 3 samples.

Results

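Skin macrophages were followed across back skin development at E13.5, E16.5 and P0, the day of birth. They were chosen as cells with a unique molecular identifier (UMI, 1 captured transcript) of at least 4 of the 7 genes C1qa, C1qb, C1qc, Csf1r, Pf4, Fcer1g and Tyrobp, of at least 1 of the leukocyte genes Ptprc, Laptm5 and Coro1a, and of neither Cdh5, an endothelial cadherin, nor Trp63, a keratinocyte transcription factor. The rule found 515 of 16235 cells, called members here. These were 375 of 5962 cells at E13.5 (6.29%, 95% interval 5.69 to 6.94), 100 of 5208 at E16.5 (1.92%, 1.56 to 2.33) and 40 of 5065 at P0 (0.790%, 0.565 to 1.07). The difference between E13.5 and E16.5 depends on the marker level asked for, as the shares of members with higher marker levels show below. Of 736 cells with at least 4 of the 7 markers, 98 failed because they held Cdh5 or Trp63 and another 123 because they held none of the leukocyte genes.

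Macrophages are tissue-resident phagocytes. In embryonic tissue they enter from yolk sac and fetal liver progenitors, depend on the growth factor receptor Csf1r, take up dying cells and debris, and make the complement subunits C1qa, C1qb and C1qc. Later in life monocytes from the blood, which carry the chemokine receptor Ccr2, add to them. Perivascular and dermal macrophages typically carry the mannose receptor Mrc1, the hyaluronan receptor Lyve1 and the scavenger receptor Cd163, while MHC class II molecules mark cells that present antigen to T cells.

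Each stage was 1 droplet-based single-cell library from pooled back skin of male C57BL/6 mice, for which the labels name no treatment or engineered allele. Skin was digested with trypsin at E13.5 and E16.5 and with collagenase IV at P0. No sort for leukocytes is described. The libraries held 53334740, 66239195 and 46599806 UMIs at E13.5, E16.5 and P0. With 1 library per stage there was no replicate and no test was run, and stage, library and pool of animals (and, at P0, the digestion) cannot be told apart. A level is the summed UMIs of a gene per 1000000 UMIs of the members of a stage (CPM) with an exact Poisson 95% interval, and a share has an exact binomial (Clopper-Pearson) 95% interval. These intervals cover counting error only. The members held 3008155, 1199933 and 325075 UMIs, so that 3 UMIs, taken as the detection floor, stood for 0.997, 2.5 and 9.23 CPM. Libraries shared between 32 and 44 cell barcodes pairwise, and no barcode was a member in 2 libraries.

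The rule markers set who was a member, so their levels are a description. C1qa stood at 834, 1714 and 2762 CPM at E13.5, E16.5 and P0, and Csf1r at 333, 736 and 621 CPM. The platelet factor 4 gene Pf4, which embryonic macrophages also express, was the highest at each stage, at 1990.3, 6597 and 11456 CPM. The 7 markers together gave a median of 40.5 UMIs per 10000 UMIs of a cell at E13.5, of 212 at E16.5 and of 336 at P0, with lowest values of 4.19, 10.8 and 13.9 and highest values of 339, 405 and 642. All 7 markers were found in 170 of 375, 76 of 100 and 32 of 40 members. At the threshold, the 55 members with exactly 4 markers at E13.5 had a median of 13.8 marker UMIs per 10000, and the 63 cells just outside it, with 3, had 10.5. At E16.5 these medians were 57.8 (9 cells) and 45.5 (34 cells). At P0 they were 62.7 (1 cell) and 54.7 (6 cells).

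The label was checked on 15 macrophage genes that the rule did not use, among them Adgre1 (F4/80), Cd68, Lyz2, Ctss, Fcgr1, Mertk and Cx3cr1. All 15 were detected in the members at each stage, and their sum was 2646 CPM (2589 to 2705) at E13.5, 7720.4 (7564 to 7879) at E16.5 and 7398 (7106 to 7700.0) at P0. In all other cells of each library it was 68.7, 136 and 42.2 CPM. In other leukocytes, which the rule left out, it was 1243, 6467 and 5054 CPM. Cells just outside the rule, with 3 markers, had a higher median level of these genes than members at E16.5 and P0. At E13.5 their median was lower. The list thus set members apart from most cells of the library, but much less from other leukocytes at E16.5 and P0. Genes of other lineages were not absent from the members. A dermal list of 10 genes, including Col1a1, Dcn and Pdgfra, summed to 51.6% of its level in the rest of the library at E13.5, to 22.1% at E16.5 and to 19.8% at P0. For 9 epidermal genes these shares were 67.1%, 13.4% and 11.5%, and for 9 erythroid genes 116%, 105% and 21.7%. At E13.5, 71 of 375 members held dermal UMIs at or above the median of the other cells, compared with 5 of 100 at E16.5 and 3 of 40 at P0.

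Because other-lineage RNA differed between stages, the main stage differences are also given for the members with at least 100 marker UMIs per 10000 UMIs, called macrophage-rich members. The E13.5 set held 81 of them, the E16.5 set 78 and the P0 set 35. This set was chosen after the data had been seen and is a range of a score, with 53, 14 and 2 members lying between 75 and 125. In it the dermal list was at 15.7%, 13.4% and 17.6% of the rest of the library, the epidermal list at 7.52%, 13.7% and 11.9%, and the erythroid list at 18.8%, 23.4% and 21.0%. Not all lists were low there. The 11 mast cell and basophil genes were at 6.87%, 100.3% and 91.0% of the rest in these members, and at 183%, 141% and 102% over all members. The 10 endothelial genes were at 218%, 129% and 106%, and over all members at 150.4%, 102% and 97.9%. That list holds Lyve1, which macrophages also express and which gave 1008 of 1119, 739 of 819 and 542 of 583 CPM of it in the macrophage-rich members, while the endothelial receptor Kdr had 1.05, 1.08 and 0 CPM there. The part that RNA of other cells has in the differences of the whole set was not tested.

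**Figure D1:**
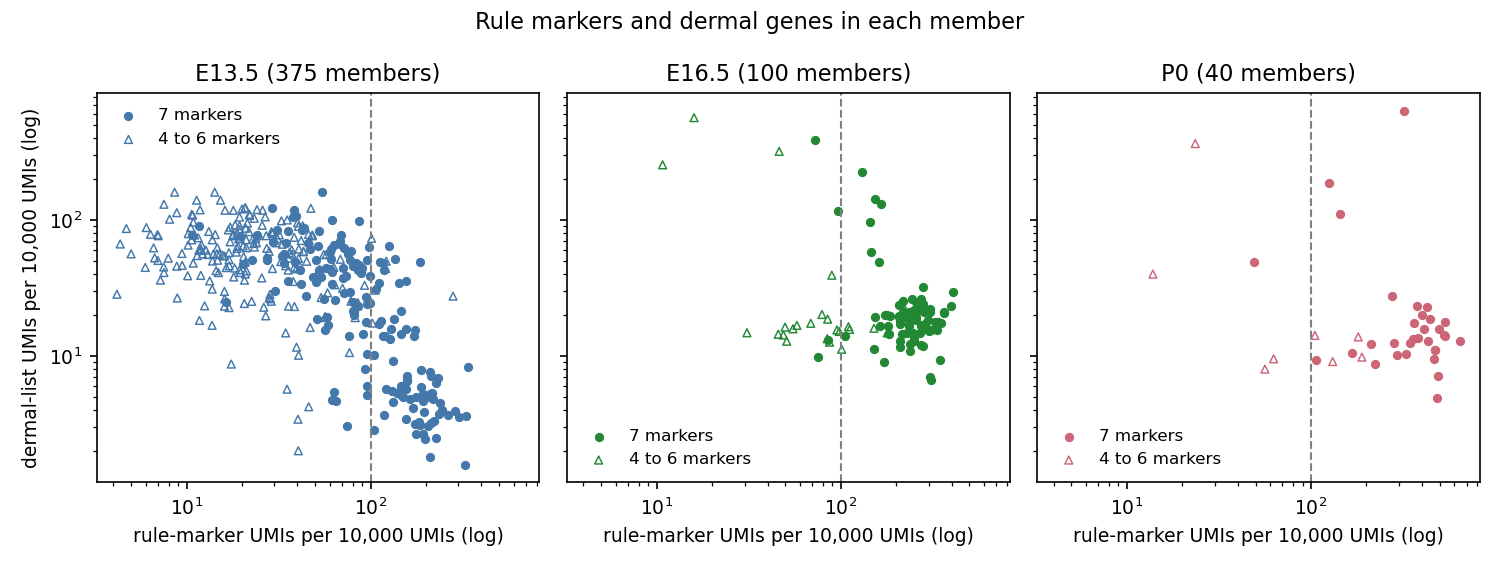
Each point is 1 member. The x axis gives UMIs of the 7 rule markers per 10000 UMIs and the y axis UMIs of 10 dermal genes per 10000 UMIs, both on log axes, in 1 panel per stage. Filled circles hold all 7 markers, open triangles 4 to 6, and the dashed line marks 100 marker UMIs per 10000. At E13.5 the 375 members form a continuum in which low marker levels go with high dermal levels (median 66.5 dermal UMIs per 10000 in members with 4 markers and 24.3 in those with 7), which is not seen at E16.5 (16.8 and 18.4).

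Differences between stages are log2 ratios of CPM after adding 10 to each, for genes with at least 50 UMIs over the members of both stages, and a gene is said to be past 2-fold at a log2 difference of at least 1 in size. From E13.5 to E16.5, 280 of 7768 genes were higher (3.6%) and 432 lower (5.56%). In the macrophage-rich members 90 of 4805 were higher (1.87%) and 39 lower (0.812%). In P0 against E16.5, 93 of 4073 genes were higher (2.28%) and 347 lower (8.52%), and in the macrophage-rich members 92 of 3414 were higher (2.69%) and 324 lower (9.49%). Between the outer stages, P0 against E13.5, 398 of 6988 were higher (5.7%) and 1314 lower (18.8%). The median difference over all genes compared was -0.05, -0.15 and -0.30 for these 3 comparisons. Centred on that median, 138 genes were higher and 231 lower from E16.5 to P0, and 689 higher and 779 lower from E13.5 to P0. The comparisons share stages and are not independent of each other.

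Genes of perivascular and scavenger macrophages were found in the members at every stage. Mrc1, on chromosome 2 (GRCm38, chr2:14229392-14332057), stood at 476 CPM (452 to 501) at E13.5, 998 (942 to 1056) at E16.5 and 439.9 (371 to 518) at P0. It was thus highest at E16.5, with intervals that did not overlap those of the other stages. Its log2 difference from E16.5 to P0 was -1.16 (-1.42 to -0.92), and -1.33 in the macrophage-rich members. In these members it did not differ by 2-fold from E13.5 to E16.5, at 1091 and 1228 CPM (log2 difference 0.17, 0.05 to 0.29). Lyve1 differed by less than 2-fold at each step over all members, at 453 CPM (429 to 478), 576 (534 to 621) and 486 (413 to 568). In the macrophage-rich members it was 1008, 739 and 542 CPM, lower at each later stage but by less than 2-fold at each step. F13a1, the A subunit of coagulation factor XIII, had 455 CPM (431 to 480), 1463 (1395 to 1533) and 951 (848 to 1063).

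Other genes of the same list were highest at P0. The folate receptor Folr2 had 114 CPM (102 to 126), 168 (145 to 192) and 412 (345 to 488), with a log2 difference of 1.25 (0.94 to 1.56) from E16.5 to P0. Cbr2, a carbonyl reductase found in dermal macrophages (chr11:120729489-120732114), had 1.66 CPM from 5 UMIs, 39.2 (28.8 to 52.1) and 265 (212 to 327). Its log2 difference was 2.08 at the first step and 2.48 (2.02 to 2.93) at the second, and 2.07 and 2.35 in the macrophage-rich members. Cbr2 was also present in keratinocyte reference cells, of which 39.0% at E16.5 and 32.5% at P0 held a UMI, and after thinning every cell to 3500 UMIs 14.1% and 12.1%. In the thinned members the shares were 13.1% (7.18 to 21.4) at E16.5, which is at that background, and 50% (33.8 to 66.2) at P0. Cd163, the haptoglobin and hemoglobin scavenger receptor, was all but absent at E13.5, with 3 UMIs in 375 members. It had 62.5 CPM (49.2 to 78.4) at E16.5, a ratio of 62.7 (20.6 to 311), and 108 (74.99 to 150) at P0.

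Of the 17 perivascular or scavenger genes in the table, 15 could be compared. From E13.5 to E16.5, 7 were higher by 2-fold and none lower (median log2 difference 0.94), but in the macrophage-rich members only Cd163 and Cbr2 were (median 0.12). At P0 against E16.5, Folr2 and Cbr2 were higher and Mrc1 and Stab1, a scavenger receptor, lower (median -0.09, beside -0.15 over all genes). Over all genes 2.28% were higher and 8.52% lower at this step, so these counts say little about the list as a whole. Stab1 was at 352, 563 and 262 CPM, with a difference on the log2 scale of -1.08 from E16.5 to P0, which became -0.93 when centred on the median gene. The summed level of the list was 5503, 10226 and 8835 CPM in stage order.

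**Figure D2:**
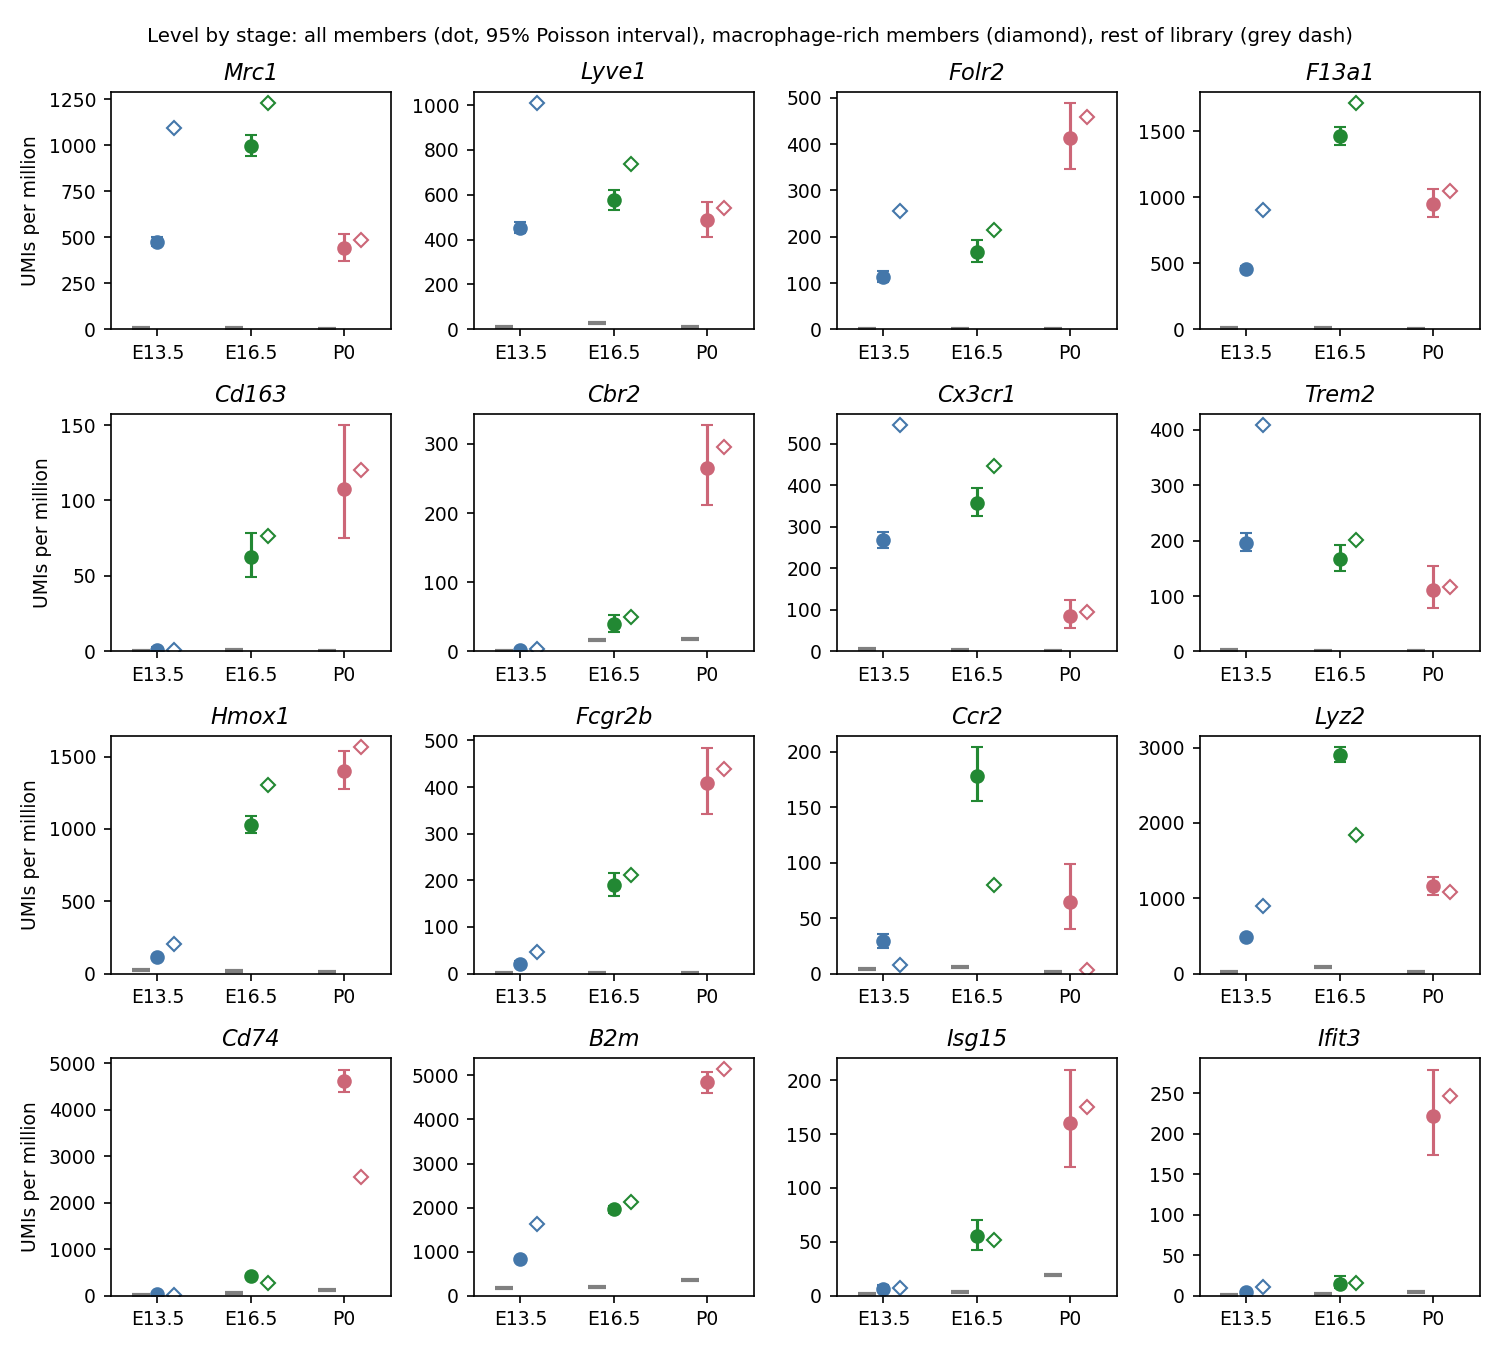
Levels of 16 genes in CPM (y axis, starting at 0) at E13.5, E16.5 and P0 (x axis). Dots are all members with 95% Poisson intervals, open diamonds the macrophage-rich members and grey dashes all other cells of the library. Mrc1 and Cx3cr1 are lowest at P0 in the macrophage-rich members (483 and 96.0 CPM), Cbr2, Fcgr2b, B2m and Ifit3 are highest at P0, and Ccr2 and Lyz2 peak at E16.5 (178 and 2904 CPM over all members).

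The members also differed among themselves in scavenger genes. Lyve1 was found in 142 of 240 E13.5 members that held Mrc1 (59.2%) and in 31 of 135 that did not (22.96%). At E16.5 the counts were 60 of 82 (73.2%) and 0 of 18, which allows a share of up to 18.5%. At P0 they were 18 of 30 (60%, 40.6 to 77.3) and 2 of 10 (20%, 2.52 to 55.6). The intervals of the shares with and without Mrc1 did not overlap at E13.5 and E16.5 and overlapped at P0, and the difference was not tested. Of the 18 E16.5 members without Mrc1, 12 held the monocyte genes Ccr2 and Plac8 together. These shares were not thinned to 1 depth. At E13.5, members with 4 markers had a median of 5500 UMIs and those with 7 had 7912.5. The part of depth and of RNA of other cells in the shares was not tested.

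The fractalkine receptor Cx3cr1, a gene of yolk sac-derived macrophages and microglia, was lower at P0 than at both earlier stages. It had 268 CPM (250.1 to 287) at E13.5, 358 (325 to 394) at E16.5 and 86.1 (57.2 to 124.5) at P0. From E16.5 to P0 the log2 difference was -1.94 (-2.47 to -1.43), and -2.11 (-2.65 to -1.60) in the macrophage-rich members. A UMI of it was found in 51.7%, 82% and 32.5% of members, and in cells thinned to 3500 UMIs in 36.8% (31.9 to 41.9), 60.6% (50.3 to 70.3) and 22.5% (10.8 to 38.5). In keratinocyte reference cells, which should lack it, the thinned shares were 2.56%, 0.672% and 0.183%, at median depths of 10399, 13845 and 10080 UMIs beside 6408, 11793.5 and 7100.5 in the members. One P0 cell held 9 of the 28 UMIs, and without it the P0 level was 60.7 CPM.

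Other genes known from microglia did not follow one pattern. Trem2, a lipid-sensing receptor, had 197 CPM (181 to 213), 167 (144 to 191) and 111 (77.6 to 153). In the macrophage-rich members it was 408, 202 and 117 CPM. P2ry12, a purinergic receptor, was at 27.9, 43.3 and 49.2 CPM with overlapping intervals. Sall1, the transcription factor that defines microglia, had 4 UMIs at E13.5 and none later. The P0 value of Tmem119 (154 CPM) rested on 1 cell with 27 of its 50 UMIs, and without that cell it was 73.5 CPM.

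Transcription factors of the lineage were present throughout. Spi1, which encodes PU.1, the factor that macrophages require, had 262 CPM (244 to 281), 458 (421 to 498) and 449 (379 to 528), and in the macrophage-rich members 484, 466 and 455.96 CPM. In that set its 3 levels lay close together. Maf had 319.5, 691 and 360 CPM in stage order. Its log2 difference from E16.5 to P0 was -0.92 (-1.20 to -0.65), and -1.03 in the macrophage-rich members. Of the 13 macrophage transcription factors compared at this step, Cebpb and Mef2c were lower by 2-fold, and Klf4 was among those higher. Over all genes 2.28% were higher and 8.52% lower, so counts this small say little about the list.

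A small set of members carried genes of monocytes, with the largest share at E16.5. Ccr2, a chemokine receptor of monocytes, had 29.3 CPM (23.5 to 36.0) at E13.5, 178 (155 to 204) at E16.5 and 64.6 (40.0 to 98.8) at P0. Plac8, a gene of monocytes, had 47.9, 264 and 18.5 CPM. Both were found together in 14 of 375 members at E13.5 (3.73%, 2.06 to 6.18), 22 of 100 at E16.5 (22%, 14.3 to 31.4) and 0 of 40 at P0 (up to 8.81%). The 22 E16.5 cells carried the lysozyme gene Lyz2 at 8718 CPM (8345 to 9104), and the other 78 at 1486 (1410.4 to 1565). Pf4 was at 421 CPM in the 22 and 8102 in the 78, Mrc1 at 272 and 1174, and Lyve1 at 4.25 (1 UMI) and 715. The galectin gene Lgals3 was at 1089 and 63.2 CPM, and S100a6 at 1025 and 86.0. Ly6c2, a marker of classical monocytes, was at 63.8 CPM (15 UMIs) and 1.04 (1 UMI), but was found in 3 of the 100 members only. A Ccr2 UMI was found in 6.13%, 26.3% and 7.50% of members thinned to 3500 UMIs. The unthinned shares were 9.33%, 29.0% and 7.50%, and in the thinned keratinocyte reference cells the shares were 0%, 0.336% and 0%. The 14 E13.5 cells differed from the other 361 in the same directions, with Lyz2 at 1043 and 458 CPM, Lgals3 at 247 and 21.1, S100a6 at 265 and 54.5, Pf4 at 525 and 2076, Mrc1 at 229 and 490.4, and Lyve1 at 6.03 (1 UMI) and 479. The 22 cells were picked on Ccr2 and Plac8 and still carried C1qa, at 451 CPM compared with 2022 in the other 78. Of 5 monocyte genes compared, 4 were higher at E16.5 than at E13.5 and 1, Vcan, lower, and of 4 compared at P0 against E16.5, 3 were lower and none higher. The 11 monocyte genes in the table summed to 197, 658 and 157 CPM in members. In the rest of the library they summed to 226, 154 and 140 CPM. The sum in members was thus below that of the rest at E13.5 and close to it at P0. In the macrophage-rich members it was 52.6, 268 and 92.6 CPM. In other leukocytes, which the rule left out, they summed to 1151, 1521 and 953 CPM, so cells with monocyte genes also lay outside the rule at each stage.

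Lyz2 was highest at E16.5 in both sets. Over all members Lyz2 was at 490.3, 2904 and 1163 CPM, and in the macrophage-rich members at 897, 1845 and 1076. The 15 identity genes outside the rule did not follow Lyz2 as a group. Of 14 compared, 9 were higher by 2-fold at E16.5 than at E13.5 (median log2 difference 1.15), and in the macrophage-rich members 1 of 12, Lyz2 (median 0.28). At P0 against E16.5, 1 of 13 (Ms4a7) was higher and 2 (Lyz2 and Cx3cr1) lower (median 0.10), beside 2.28% and 8.52% of all genes. The 15 identity genes summed to 5179, 7059 and 7638 CPM in the macrophage-rich members in stage order. Cd68, a lysosomal membrane protein, was higher at each later stage by less than 2-fold a step, at 181 CPM (166 to 197), 343 (310.2 to 377) and 658 (573 to 753). Its log2 differences were 0.88 and 0.92 over all members, and 0.19 and 0.80 in the macrophage-rich members.

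Some genes for heme and iron handling were higher at E16.5 than at E13.5, led by Hmox1. Hmox1, the enzyme that breaks down heme (chr8:75093621-75100589), had 113 CPM (101 to 125.4) at E13.5, 1030.1 (973 to 1089) at E16.5 and 1403 (1277 to 1538) at P0. The first step was a log2 difference of 3.08 (2.92 to 3.25) and 2.61 (2.40 to 2.83) in the macrophage-rich members, and in the rest of the library Hmox1 was at 21.6, 17.99 and 11.2 CPM. One E16.5 cell held 322 of the 1236 UMIs, and without it the level was 775 CPM. The iron exporter Slc40a1 was at 65.2, 253 and 148 CPM, with a log2 difference of 1.81 at the first step. Of 11 iron and heme genes compared, 6 were higher at E16.5 than at E13.5 and none lower, and 3 of 10 (Hmox1, Slc40a1 and Cd163) in the macrophage-rich members. At P0 against E16.5 none of 10 was past 2-fold in either direction, and at P0 against E13.5 4 of 9 were higher, with 1 of 9, Hmox1, in the macrophage-rich members. Beside this, the erythroid list in the members was 20738, 4986 and 348 CPM in stage order. At E16.5, 1 member held 2185 of 2847 Hbb-bs UMIs.

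Of the receptors for immunoglobulin, Fcgr2b was higher at each later stage. Fcgr2b, the inhibitory Fc receptor, was at 20.9 CPM (16.1 to 26.8), 189 (165 to 216) and 409 (343 to 485). Its log2 differences were 2.69 (2.38 to 2.99) and 1.07 (0.77 to 1.38), and 1.97 and 1.03 in the macrophage-rich members, past 2-fold at each step in both sets. The activating receptor Fcgr3 had 321, 990.1 and 1449 CPM, and Fcgr4 12.3, 65.0 and 95.4. Of 6 Fc receptor genes, 5 were higher at E16.5 than at E13.5 (2 of 6 in the macrophage-rich members, Fcgr2b and Fcgr4), and 1 at P0 than at E16.5. Properdin, Cfp, which stabilises the alternative complement pathway, had 39.6, 260.0 and 255 CPM.

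The MHC class I genes B2m, H2-K1 and H2-D1 were higher by 2-fold at each step over all members. B2m, the invariant light chain, was at 836 CPM (804 to 870), 1965 (1887 to 2046) and 4842 (4606 to 5087). The heavy chain gene H2-K1 was at 53.5, 243 and 551 CPM, and H2-D1 at 149, 828 and 1698. The log2 differences from E16.5 to P0 were 1.30 (1.20 to 1.39), 1.15 (0.88 to 1.42) and 1.03 (0.88 to 1.18), and in the macrophage-rich members 1.26, 1.14 and 1.03. In the rest of the library B2m differed by 0.86, H2-K1 by 0.40 and H2-D1 by 1.33. Of 8 class I genes compared, 8 were higher at E16.5 than at E13.5, but 2 of 6 in the macrophage-rich members. From E16.5 to P0 it was 3 of 8 (4 of 7 in the macrophage-rich members), with none lower. H2-K1 and H2-D1 are near-identical in parts, and reads could be split between them.

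MHC class II genes were higher at P0, in a few cells. The invariant chain Cd74 was at 29.6 CPM (23.8 to 36.4) at E13.5, 428 (391 to 466) at E16.5 and 4627 (4396 to 4866) at P0. H2-Aa, the alpha chain of I-A, had 0 UMIs at E13.5, 57.5 CPM (44.7 to 72.8) at E16.5, which is at least 57.7-fold higher than the floor of 3 UMIs over all E13.5 members, and 1249 (1130.4 to 1377) at P0. H2-Ab1 and H2-Eb1 had 1 and 2 UMIs at E13.5, 55.0 and 31.7 CPM at E16.5, and 1237 and 809 at P0. The log2 differences from E16.5 to P0 were 3.41 for Cd74, 4.22 for H2-Aa, 4.26 for H2-Ab1 and 4.30 for H2-Eb1. Of 7 class II genes compared, 6 were higher at P0 and none lower.

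A UMI of H2-Aa was found in 0 of 375, 3 of 100 and 6 of 40 members, and in cells thinned to 3500 UMIs in 0%, 2.02% and 12.5% (4.19 to 26.8), compared with 0%, 0.672% and 0.611% of thinned keratinocyte reference cells. Of the 69 UMIs at E16.5, 1 cell held 36 and another 32. The 6 P0 cells carried Cd74 at 26246 CPM, H2-Ab1 at 7270.2 and the monocyte receptor Ccr2 at 364, and the other 34 carried Cd74 at 222 (169 to 286), H2-Ab1 at 7.41 and Ccr2 at 3.70 (1 UMI). In turn Pf4 was at 236 CPM in the 6 cells and 13742 in the 34, F13a1 at 109 and 1122, Mrc1 at 72.7 and 515, and Lyve1 at 0 and 585. Without the members that held H2-Aa, an alternative chosen after the data had been seen, the log2 difference of Cd74 from E16.5 to P0 was 0.05 in place of 3.41, and that of Mrc1 was -0.96. The class II difference thus lay in 6 cells, picked on H2-Aa, that were low in the scavenger genes, though 3 of them held an Mrc1 UMI. Cd209a, 1 of 8 dendritic cell genes in the table, had 7 UMIs in the 6 cells and 0 in the other 34. The 8 genes together had 14 UMIs over all P0 members. Whether the 6 cells are macrophages or dendritic cells was not tested. Other leukocytes at P0, which the rule left out, had Cd74 at 22629 CPM, and the 6 P0 cells just below the rule with 3 markers had a median of 785 class II UMIs per 10000. Cd207, the langerin gene of Langerhans cells, had no UMI in any member, and Ciita, the class II master regulator, had 3 UMIs at P0 and none before.

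**Figure D3:**
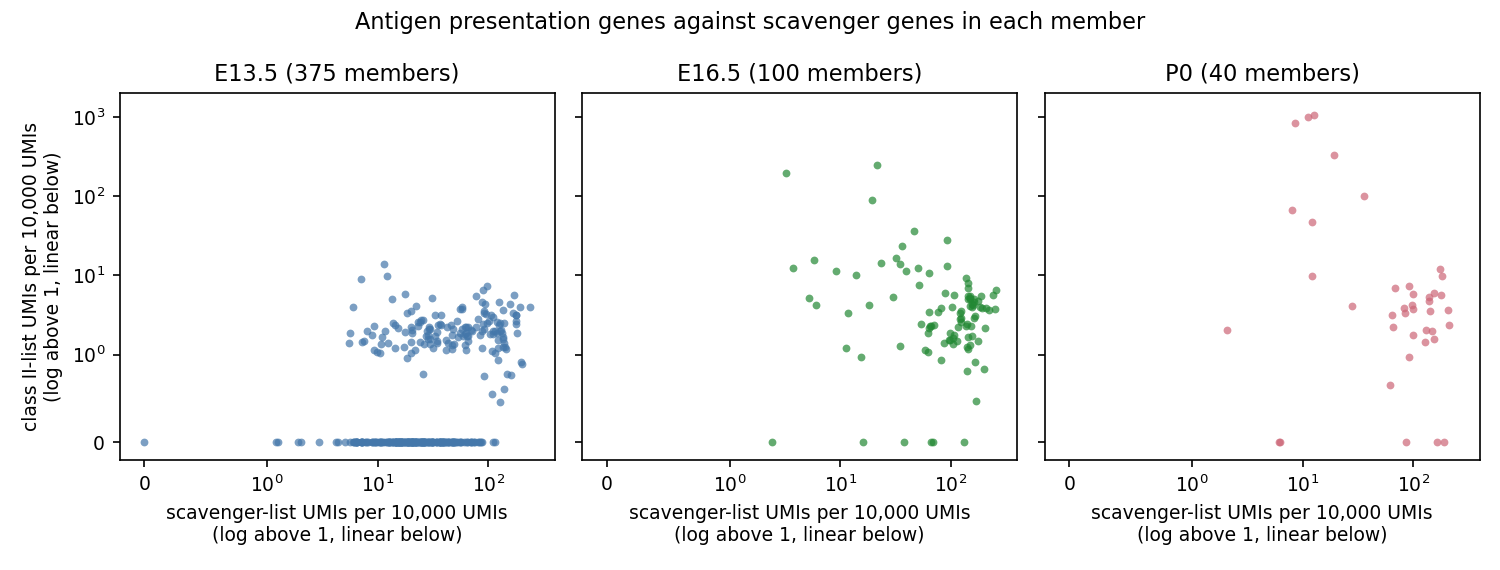
Each point is 1 member. The x axis gives UMIs of the perivascular or scavenger genes and the y axis UMIs of the class II antigen presentation genes, both per 10000 UMIs, log above 1 and linear below, in 1 panel per stage. At P0 a few cells stand high in class II and low in scavenger genes, among them the 6 with H2-Aa, while most of the 40 members lie low in class II and high in scavenger genes.

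The promoters of the class II genes that carried this difference are shown for context. Class II promoters hold a CCAAT element (Y box) near the start, which is bound by the factor NF-Y. Of 6 class II genes past 2-fold, 4 had an entry in the promoter table of RefSeq (GRCm38.p6), and CCAAT was found on either strand in 3 of the 4 over the 250 bases before the start, compared with 34.5% of 27025 promoters. The letters matched, CCAAT or its reverse complement ATTGG, are in capitals, and each sequence is written 5′ to 3′ on the strand of the gene. H2-Aa is at chr17:34287824-34288073 on the minus strand and H2-Eb1 at chr17:34305617-34305866 on the plus strand.
H2-Aa: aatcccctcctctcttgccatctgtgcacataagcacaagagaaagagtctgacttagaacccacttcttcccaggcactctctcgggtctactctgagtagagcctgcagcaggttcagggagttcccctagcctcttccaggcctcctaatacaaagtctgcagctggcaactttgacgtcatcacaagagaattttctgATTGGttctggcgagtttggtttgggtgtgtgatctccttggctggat
H2-Eb1: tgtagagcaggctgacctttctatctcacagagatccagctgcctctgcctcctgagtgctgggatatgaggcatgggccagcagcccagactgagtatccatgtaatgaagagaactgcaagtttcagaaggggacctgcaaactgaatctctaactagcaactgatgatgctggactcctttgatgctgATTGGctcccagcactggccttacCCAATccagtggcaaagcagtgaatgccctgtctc
H2-Aa holds 1 match, 48 bases before the start, and H2-Eb1 holds 2. A match is a description of letters and not a site shown to be bound.

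Interferon response genes were higher at P0 across the members, and as a summed list in the rest of the library too. From E16.5 to P0 the list had a log2 difference of 1.42 in members, 1.73 in macrophage-rich members and 1.16 in the rest. From E13.5 to E16.5 these values were 1.84, 0.85 and 1.36. The 18 genes together had a lowest, median and highest level of 0, 2.57 and 67.9 UMIs per 10000 at E13.5, 1.22, 16.4 and 102 at E16.5, and 2.05, 63.8 and 184 at P0. Ifit3, an interferon-induced antiviral protein (chr19:34583531-34588731), was at 4.32 CPM (2.301 to 7.39) at E13.5, 15 (8.89 to 23.7) at E16.5 and 222 (173 to 279) at P0. The log2 difference from E16.5 to P0 was 3.21 (2.66 to 3.73), 3.35 in the macrophage-rich members and 0.30 in the rest of the library. Ifit3 is near-identical to Ifit3b, and reads could be split between them. A UMI was found in 8 of 375, 10 of 100 and 21 of 40 members, and in cells thinned to 3500 UMIs in 0.800%, 4.04% and 30.0% (16.6 to 46.5). In thinned keratinocyte reference cells it was 0%, 0.168% and 0.183%. Ifit1 was at 0.997, 22.5 and 123 CPM, the ubiquitin-like modifier Isg15 at 6.65, 55.0 and 160.0, the transcription factor Irf7 at 10.3, 59.2 and 197, and Ifi27l2a at 106, 513 and 2058. Of 10 interferon genes compared, 9 were higher at E16.5 than at E13.5 and none lower, 5 of 10 in the macrophage-rich members. Of 12 compared from E16.5 to P0, 9 were higher and none lower, with 11 of 12 in the macrophage-rich members. Leaving out the members with H2-Aa gave 3.22 for Ifit3 and 1.31 for Isg15.

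Many interferon-induced genes share an interferon-stimulated response element, for which GAAA, any 2 bases and GAAA again were searched on both strands. Of the 11 interferon genes past 2-fold in the macrophage-rich members, 8 had an entry in the promoter table, and 4 of the 8 held a match in the 250 bases before the start, compared with 3.04% of 27025 promoters. Isg15, Ifit1 and Ifit3 are shown because they are among the genes past 2-fold that hold a match, with matches in capitals. Matches in Isg15 overlap, so that 3 of them make 1 run of capitals. Isg15 is at chr4:156200819-156201068 on the minus strand, Ifit1 at chr19:34640639-34640888 on the plus strand and Ifit3 at chr19:34583279-34583528 on the plus strand.
Isg15: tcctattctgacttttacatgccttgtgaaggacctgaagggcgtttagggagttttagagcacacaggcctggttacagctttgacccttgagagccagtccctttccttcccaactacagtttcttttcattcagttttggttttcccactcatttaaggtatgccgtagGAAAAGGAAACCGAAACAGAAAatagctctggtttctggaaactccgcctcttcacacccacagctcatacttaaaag
Ifit1: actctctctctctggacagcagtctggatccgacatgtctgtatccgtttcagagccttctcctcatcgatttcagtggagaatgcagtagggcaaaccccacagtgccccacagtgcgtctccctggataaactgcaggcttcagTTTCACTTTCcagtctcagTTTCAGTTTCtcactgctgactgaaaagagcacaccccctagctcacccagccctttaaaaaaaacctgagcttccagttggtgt
Ifit3: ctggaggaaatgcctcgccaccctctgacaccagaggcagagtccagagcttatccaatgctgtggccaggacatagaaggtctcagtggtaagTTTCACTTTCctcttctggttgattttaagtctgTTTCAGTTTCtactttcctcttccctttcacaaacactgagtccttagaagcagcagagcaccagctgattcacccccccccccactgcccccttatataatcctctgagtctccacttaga
Bst2 was the other gene with a match, and Irf7, Oasl2, Xaf1 and Ifitm3 had none in this window.

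Chemokines and secreted factors gave a mixed picture. The monocyte attractant Ccl2 was at 125.3 CPM (113 to 139), 287 (257 to 319) and 302 (245 to 367), and Ccl7 at 42.2, 214 and 532. One P0 cell held 76 of the 173 Ccl7 UMIs, and without it the P0 level was 304 CPM. Cxcl16, a membrane-bound chemokine, was at 3.66 CPM (11 UMIs), 20.8 and 102, with a log2 difference of 1.85 (1.23 to 2.45) from E16.5 to P0. Insulin-like growth factor 1, Igf1, was at 181, 219 and 225 CPM, and in the macrophage-rich members at 254, 262 and 250.3, so its levels lay close together. The semaphorin and VEGF co-receptor Nrp1 was at 285 CPM at E13.5 and E16.5 and 80.0 at P0, which was seen in the rest of the library too (log2 difference -1.71 in members and -2.12 in the rest). The inflammatory cytokine genes Il1b and Tnf had 0, 8 and 1 UMIs and 9, 5 and 3 UMIs. Il18, another cytokine of the inflammatory list, was at 23.6 CPM (18.4 to 29.8), 131 (111 to 153) and 142 (104 to 189), with a log2 difference of 2.07 from E13.5 to E16.5, and 1.39 in the macrophage-rich members. Of 8 genes of that list compared at this step, 3 (Il18, Nfkbiz and Mrc1) were higher and none lower, and in the macrophage-rich members 1 of 6, Il18. The ligands of Csf1r were also low in the members, with 9, 2 and 4 UMIs of Csf1 and 3, 2 and 4 of Il34.

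Lipid and clearance genes were compared between E16.5 and P0. Apoe, the apolipoprotein that macrophages secrete, was among the highest genes of the members, at 6706, 9165 and 8589 CPM. Lipoprotein lipase, Lpl, was at 120 CPM (108 to 133), 124 (105 to 146) and 40.0 (21.3 to 68.4), a log2 difference of -1.42 (-2.13 to -0.74) from E16.5 to P0. Of 10 lipid genes compared at that step, Plin2, a lipid droplet coat protein, was higher and Lpl and Apoc1 lower, read beside 2.28% of all genes higher and 8.52% lower, so that counts this small say little about lipid genes. Of 11 genes for phagocytosis and dead cell clearance, none was higher and 4 (Stab1, Lrp1, Itgb5 and Elmo1) were lower. The same 4 were lower among 9 compared in the macrophage-rich members.

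DNA replication genes were lower in the P0 members. Of 18 S phase genes none was past 2-fold between E13.5 and E16.5. At the later step, 11 of 15 were lower and none higher (median log2 difference -1.36, beside -0.15 over all genes), and 8 of 12 in the macrophage-rich members. Mcm3, a subunit of the replicative helicase, was at 106 CPM (94.4 to 118), 92.5 (76.1 to 111) and 9.23 from 3 UMIs (1.90 to 27.0). The chromatin remodeller Hells had 238, 50 and 0 UMIs, so that its E16.5 level was at least 4.52-fold higher than the floor at P0. In the rest of the library Mcm3 differed by -0.97 and Hells by -0.89 from E16.5 to P0. The proliferation marker Mki67 was at 102, 123 and 30.8 CPM (10 UMIs at P0), with -1.70 (-2.45 to -0.96) in the members and -1.42 in the rest.

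As a share of cells, members with at least 3 of 18 G2/M genes after thinning to 3500 UMIs were, in stage order, 83.2% (79.0 to 86.8), 47.5% (37.3 to 57.8) and 27.5% (14.6 to 43.9). One E16.5 member with fewer UMIs was left out. Without thinning the shares were 94.7%, 75% and 45%. In the macrophage-rich members they were 60.5%, 49.4% and 28.6%, and in the rest of the library 68.8%, 50.7% and 31.0%, so the share was lower at each later stage in both. These counts also read RNA from other cells, and its part was not tested.

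Early response and heat shock genes, which tissue dissociation can induce, also differed between stages. Fos had 278, 1418 and 1307 CPM in stage order, and in the rest of the library at 59.4, 508 and 1031. Of 18 dissociation genes compared, 11 were higher and 2 lower at E16.5 against E13.5, both stages digested with trypsin, and 8 of 17 were higher in the macrophage-rich members. The heat shock gene Hspa1a was at 1.66, 0.833 and 357 CPM (295 to 428) in the members and at 1.77, 5.64 and 248 in the rest, so its level was highest at P0 in both. A UMI of it was found in 23 of 40 P0 members (57.5%, 40.9 to 73.0). It is nearly identical to Hspa1b, and reads could be split between them. The part of these genes in the other differences was not tested.

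Of the remaining genes with the largest differences, many belong to other lineages. The lowest at E16.5 against E13.5 was embryonic beta globin, Hbb-y, at 6088 and 24.2 CPM (log2 difference -7.48), followed by Hba-x, Ptn, Nnat and the neuronal tubulin Tubb3. Ptn, a growth factor of mesenchyme, was at 671 CPM in members and 1258 in the rest at E13.5. Among the highest were the keratinocyte gene Lgals7 (3.32 to 135 CPM) and the mast cell tryptase Tpsb2 (3 UMIs to 75.8 CPM), beside the myeloid lectin receptor Clec4n (26.9 to 278 CPM, log2 difference 2.97) and Pla2g7 (5.65 to 97.5 CPM). At P0 against E16.5 the lowest were adult globins and histone genes, among them Hist1h2ap, at 1184 and 111 CPM in members and 1079 and 146 in the rest. The nuclear lamin Lmna was at 80.1, 273 and 1261 CPM, with a log2 difference of 2.17 from E16.5 to P0 in members and 0.48 in the rest. Tsc22d3, a glucocorticoid-induced gene, was at 41.6, 102 and 479.9 CPM, with 2.13 and 1.18.

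**Figure D4:**
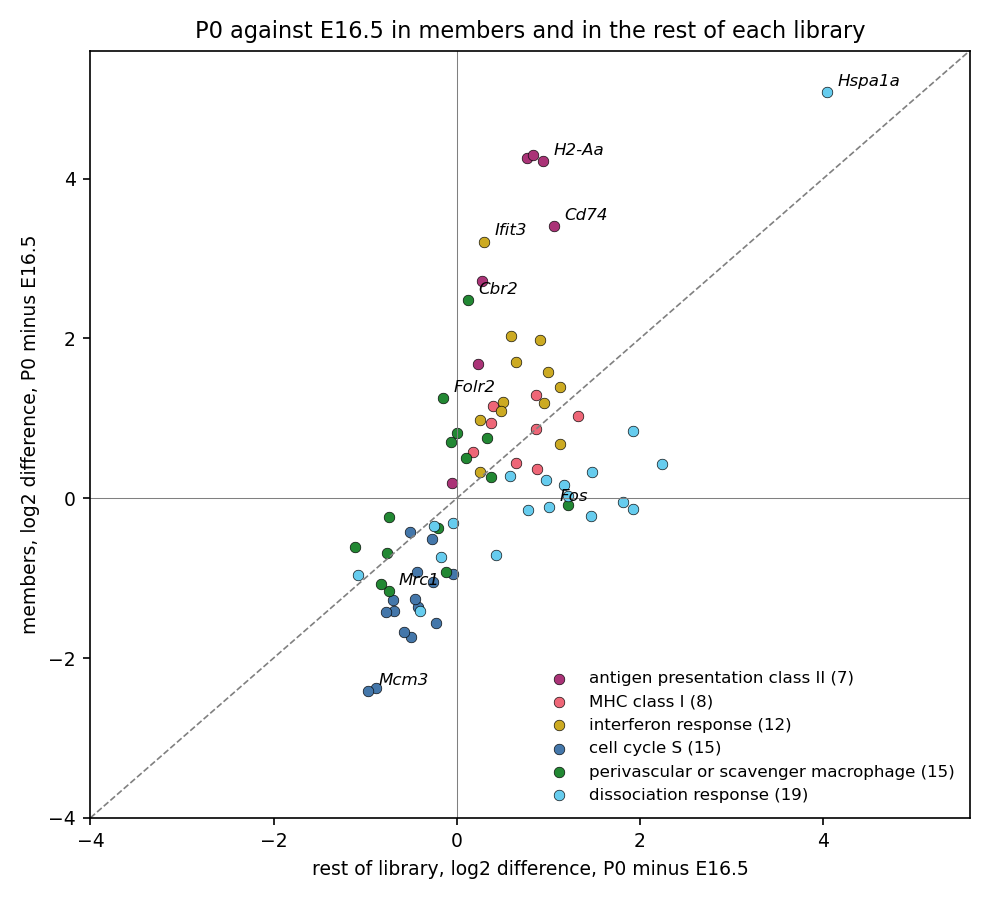
Log2 differences from E16.5 to P0 in members (y axis) against all other cells of the same libraries (x axis) for genes of 6 lists. The dashed line marks equal differences. All 7 class II genes, 11 of 12 interferon genes and 5 of 8 class I genes lie above the line, compared with 1 of 15 S phase genes and 2 of 19 dissociation genes.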

How the data were processed

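Single-cell libraries of E13.5, E16.5 and P0 back skin were made by the authors with Cell Ranger 2.2.0 on mm10, per the labels. The deposited table of 19165 genes held the natural log of 1 plus UMIs per 10000 UMIs of a cell. Whole UMIs were recovered from its steps (100.0% of 48197283 values within 0.001), and all levels rest on these. No further cell filter and no doublet caller was applied. Members and lists were chosen with earlier results of these data known. Genes named were the rule genes, members of the 40 lists, the 15 highest and 15 lowest differences of each step (at least 50 UMIs over both stages and a UMI in 10% of members where higher) and the 15 genes highest over the rest of each library. Monocyte-like and class II cells were described after their values were seen. Keratinocyte reference cells held at least 4 of 6 epithelial genes, and other leukocytes at least 2 of the 3 leukocyte genes at most 1 of C1qa, C1qb, C1qc, Csf1r and Pf4, and neither Cdh5 nor Trp63. Thinning drew 3500 UMIs a cell. Intervals were checked on simulated Poisson counts only, which leave out differences between cells and so cannot show how well the intervals cover those. Python 3.11.15, numpy 2.4.6, pandas 2.3.3, scipy 1.17.1 and matplotlib 3.10.9 were used. Promoters were from RefSeq and gene positions from an annotation of GRCm38. Some genes of these lists are not reported here.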

Additional observations from a re-analysis of the deposited data

Results flagged for a closer look

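In 5 genes the members and the rest of the library differed past 2-fold in opposite directions. The difference between them was not tested, since each stage was 1 library. From E13.5 to E16.5 the log2 difference of Perp, a desmosomal gene, was -1.07 in members and 1.25 in the rest, and that of Tgfbi, a secreted matrix protein, 1.30 and -1.59. From E16.5 to P0 it was -1.88 and 1.57 for Apoc1, whose P0 level rested on 5 UMIs, -1.65 and 2.52 for the haptoglobin gene Hp, with 2 UMIs at P0, and -1.42 and 1.68 for Lpl. At E16.5 the 22 members with Ccr2 and Plac8 held 48 Hp UMIs and the other 78 held 1, and 0 of 40 P0 members held both genes.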

How the results depend on the processing

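No paired analysis was possible because each stage was 1 library, and for the same reason no replicate could be left out. Sets with all 7 markers, with at least 100 marker UMIs per 10000 and without H2-Aa were chosen after seeing the data. Of the log2 values recomputed, 3379 were within the spread of the reported value, 1270 moved and 15 reversed. Where a value moved or reversed, the cause was not tested.

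Members numbered 168 at E13.5 and 15 at P0 among cells with at least 2500 genes, 170 with all 7 markers and 81 macrophage-rich at E13.5, and 37 at E16.5 with at most 1 UMI of the mast cell, neutrophil and lymphocyte lists. From E13.5 to E16.5, genes past 2-fold higher and lower numbered 159 and 287 with 2500 genes, 118 and 176 with all 7 markers, 90 and 39 macrophage-rich, 453 and 728 with 1 added to CPM, 95 and 101 with 50 added, and 155 and 176 at 200 UMIs, and 465 were higher by the mean of cell CPM. From E16.5 to P0 they were 37 and 83 thinned, 45 and 57 with 50 added, 170 and 658 at 20 UMIs and 28 and 61 at 200, with 139 lower under the leukocyte limit and 231 lower centred. From E13.5 to P0 they were 243 and 807 with all 7 markers, 165 and 429 macrophage-rich, 689 and 779 centred, 196 and 252 with 50 added and 188 and 479 at 200 UMIs, with 264 higher at 2500 genes. Lists past 2-fold were 10 lower (2500 genes) and 8 lower (without the 25% highest in dermal and epidermal share) from E13.5 to P0, 6 higher (all 7 markers), 6 higher and 3 lower (macrophage-rich) from E13.5 to E16.5, and 8 higher (macrophage-rich) from E13.5 to P0.

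Cycling shares were 90.7%, 63.7% and 94.7% at E13.5 with 2 genes, 5 genes and no thinning, 64.6%, 30.3% and 75% at E16.5, and 45% at P0 without thinning. Reversed log2 differences from E13.5 to E16.5 were those of Cpa3 (0.60 with 3 markers, 0.39 under the leukocyte limit, 0.23 with all 7 markers, 2.77 macrophage-rich), Cxcl16 (-0.13, leukocyte limit), H2-Eb1 (-0.020, all 7 markers), Krt17 (1.05, macrophage-rich), and, at 2500 genes, Hdc (-0.51) and the mast cell list (-0.40). From E16.5 to P0 they were the pericyte list (-0.20 with the rule on thinned cells, -0.16 at 2500 genes, -0.69 with all 7 markers, -0.32 macrophage-rich), H2-DMb1 (-0.60, 2500 genes) and Lgals7 (-0.067, without the 25% highest in dermal and epidermal share).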
